A study of Homo sapiens with 9 samples.

Results

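The IFI6 and IFI27 family comprises 4 related human genes that encode small hydrophobic proteins, IFI6, IFI27, IFI27L1 and IFI27L2. They were taken by symbol from a table of 29972 genes, and all 4 were found and passed the filter on low values. The family was chosen by the log2 fold changes of IFI6, strong and opposite after the 2 siRNA treatments in these same libraries. The changes of the members are therefore given as a description, without a p-value, and lend no support to each other. The cells are H2030, an established line of human non-small cell lung cancer. They received, at 20 nmol/L and with a lipid reagent, a mix of siRNAs that match exon 11a of ENAH (siMENA11a), a commercial pool against ENAH in all its isoforms (siMENA) or a non-targeting pool (control). ENAH encodes hMENA, an actin regulator, and hMENA11a is its epithelial isoform. Each of the 3 groups has 3 libraries of total RNA depleted of ribosomal RNA. The question behind the comparisons is how hMENA isoforms bear on type I interferon signalling inside the tumour cell. The 3 preparations differ in reagent line as well as in target, so those differences cannot be told apart, and no time between transfection and harvest is given in the sources used here. Nothing in the labels names separate cultures within a group, so errors, calls and p-values reflect how these libraries vary and possibly technical scatter alone. In bulk RNA, fewer expressing cells and less RNA per cell cannot be told apart.

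Type I interferons bind their receptor, JAK kinases phosphorylate STAT proteins, and these join IRF9 in a complex that binds the interferon-stimulated response element (ISRE) in promoters. IFI6 and IFI27 are among the genes most often used as readouts of that pathway. The IFI6 protein has been placed in mitochondria, where it opposes cell death, and in the endoplasmic reticulum, where it acts with the chaperone HSPA5 against flaviviruses. The IFI27 protein, found in mitochondria and at the nuclear envelope, has been linked to cell death, to degradation of viral proteins through SKP2 and to nuclear export of NR4A1. Both proteins have also been described as dampening signalling by the RNA sensor RIG-I. IFI27L1 and IFI27L2 are less studied relatives beside IFI27 on chromosome 14, while IFI6 lies on chromosome 1.

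The promoters of IFI6 and IFI27 are shown because both hold several ISRE cores and those of their relatives hold none. Each window runs from 250 bases before to 50 bases after a RefSeq transcription start on GRCh38.p14, a build other than the GRCh37 named in the submitters' processing notes. Windows were found for all 4 members, with 2 overlapping ones for IFI27. They were searched on both strands for the ISRE core, GAAA and GAAA with any 2 bases between them, and for the GAS motif TTCNNNGAA. A GAS match may overlap a core, and capitals mark ISRE cores on either strand. The IFI6 window is chr1:27672143-27672442 (minus strand) and the first IFI27 window is chr14:94110486-94110785 (plus strand).
IFI6: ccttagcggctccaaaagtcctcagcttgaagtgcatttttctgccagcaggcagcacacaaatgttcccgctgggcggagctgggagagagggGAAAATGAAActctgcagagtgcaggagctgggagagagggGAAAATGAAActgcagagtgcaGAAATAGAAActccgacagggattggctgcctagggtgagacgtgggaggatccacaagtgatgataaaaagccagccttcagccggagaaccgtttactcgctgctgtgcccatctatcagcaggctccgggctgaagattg
IFI27: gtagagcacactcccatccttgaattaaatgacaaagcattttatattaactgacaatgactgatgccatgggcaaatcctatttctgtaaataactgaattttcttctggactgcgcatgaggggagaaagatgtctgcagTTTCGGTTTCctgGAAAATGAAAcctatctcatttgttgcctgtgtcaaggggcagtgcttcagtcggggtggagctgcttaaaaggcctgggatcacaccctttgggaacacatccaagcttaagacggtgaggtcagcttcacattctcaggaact

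IFI6 has 3 ISRE cores, whose first bases lie at -156, -115 and -93 from the transcription start. The first and the second lie in a direct repeat of 29 bases, ggagctgggagagagggGAAAATGAAAct, whose copies start 41 bases apart and which occurs in the promoter window of 0 other genes. IFI27 has 2 cores, TTTCGGTTTC read on the opposite strand and GAAAATGAAA, at -108 and -95 from its first start. A GAS match, TTCCTGGAA, overlaps both IFI27 cores. The longest run of letters that the IFI6 and IFI27 windows share is the 12-base gGAAAATGAAAc, present 2 times in IFI6 and 1 time in IFI27, and found in windows of 7 genes in all. An ISRE core was present in 3.57% of all 35116 promoter windows, at least 2 cores in 0.259% and a GAS match in 7.66%. The windows of IFI27L1 and IFI27L2 held neither motif, and their GC content was 65.3% and 63.3%, against 54.0% for IFI6 and 44.7% for the first IFI27 window. These matches are letters in a window and do not show that a factor bound.

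**Figure D1:**
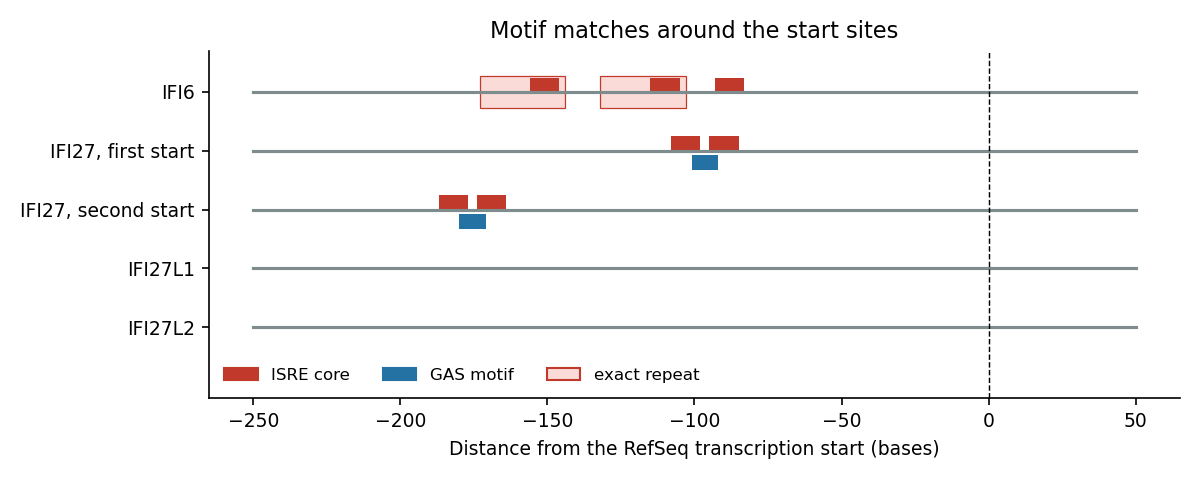
Position of ISRE cores (red), GAS matches (blue) and the exact 29-base repeat of IFI6 (pale red) in windows from 250 bases before to 50 bases after each RefSeq start (dashed line), with distance in bases on the x axis. IFI6 has 3 cores and IFI27 has 2, while IFI27L1 and IFI27L2 have no match.

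Values are TPM (a length-normalised share of all transcripts) divided by a size factor for each library, called scaled TPM here. In siMENA11a libraries 1 to 3, scaled IFI6 was 583, 686 and 663 TPM. In siMENA libraries it was 16.6, 17.6 and 17.1 TPM, and in control libraries 35.7, 36.3 and 41.5 TPM. All 3 groups were separate, with siMENA11a highest, control between and siMENA lowest. The mean was 644 ± 54.0 TPM in siMENA11a, 17.1 ± 0.514 TPM in siMENA and 37.9 ± 3.18 TPM in control (SD, n = 3 each). The log2 fold change was 4.07 ± 0.070 (SE) for siMENA11a against control and -1.12 ± 0.070 for siMENA against control. Between the knockdowns it was 5.19 ± 0.070 for siMENA11a against siMENA, the highest of the 13494 genes tested in that comparison. That place rests on the pseudocount of 0.5 added before log2 was taken, which shrinks the changes of low genes. The chemokine CCL5, at 4.97, averaged 18.9 scaled TPM in siMENA11a and 0.113 in siMENA, a larger ratio than that of IFI6. By its level within a library, IFI6 stood at place 70 to 97 of all genes in siMENA11a, 4299 to 4512 in siMENA and 1902 to 2267 in control.

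IFI27 was 587, 623 and 604 TPM in siMENA11a, 97.7, 93.3 and 97.8 TPM in siMENA and 94.96, 99.95 and 89.6 TPM in control on the scaled measure. The siMENA11a libraries lay above all others, whereas the siMENA and control libraries overlapped. Its mean was 605 ± 18.1 TPM in siMENA11a, 96.2 ± 2.58 TPM in siMENA and 94.8 ± 5.17 TPM in control. The log2 fold change was 2.67 ± 0.044 for siMENA11a against control. For siMENA against control it was 0.022 ± 0.044, with a 95% confidence interval of -0.076 to 0.12. That difference was -0.018 without control 3 and 0.17 after quantile normalisation, which called it higher. In the same comparison the interval of IFI6 was -1.28 to -0.96, and both comparisons with control use the same control libraries.

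**Figure D2:**
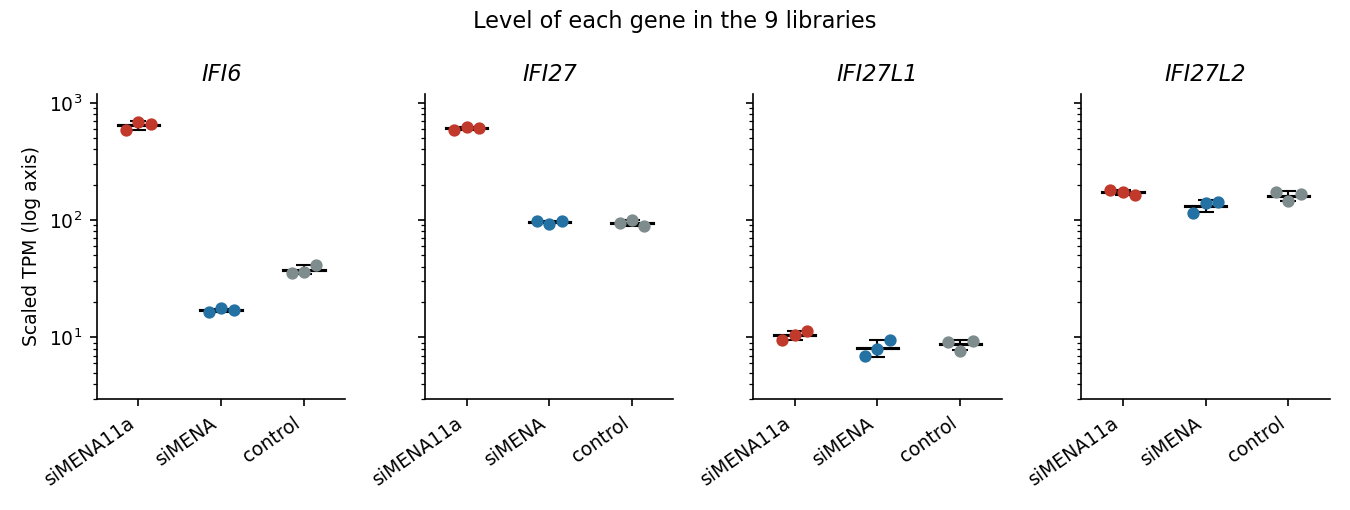
Scaled TPM (log axis) of IFI6, IFI27, IFI27L1 and IFI27L2 in each library (coloured points) of siMENA11a, siMENA and control, with the mean (bar) and SD (whisker) of 3 libraries. IFI6 lies at 583 to 686 TPM in siMENA11a, 16.6 to 17.6 in siMENA and 35.7 to 41.5 in control, IFI27 stands apart only in siMENA11a, and the relatives IFI27L1 and IFI27L2 stay within a narrow range.

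IFI27L1 and IFI27L2 differed far less between the groups. IFI27L1 was 9.51, 10.5 and 11.3 scaled TPM in siMENA11a, 6.93, 7.92 and 9.503 in siMENA and 9.15, 7.69 and 9.28 in control. The siMENA11a libraries lay just above those of the other groups, which overlapped each other. Its log2 fold change was 0.25 for siMENA11a against control (95% confidence interval -0.0066 to 0.50) and -0.10 for siMENA against control (-0.36 to 0.15). The value of siMENA against control was -0.22 without siMENA 3, -0.18 without control 2, -0.066 without control 1, -0.056 without control 3 and -0.00019 without siMENA 1. The difference of siMENA11a against control was 0.17 to 0.31 with a library left out, and it became called without siMENA 3 (0.25). IFI27L2, the most abundant member in control cells, was 179, 175 and 163 scaled TPM in siMENA11a, 116, 140 and 143 in siMENA and 173, 145 and 166 in control. The siMENA11a and control libraries overlapped, and the siMENA libraries lay below both. Its log2 fold change was 0.10 for siMENA11a against control (-0.10 to 0.29), a direction that turned to -0.037 in TPM as deposited. That value was 0.15 without control 1 and 0.021 without control 2, the extremes with a library left out. For siMENA against control it was -0.28 (-0.48 to -0.085), between -0.36 and -0.19 with a library left out. How reads that match several of these related genes were shared is not given in the sources used here.

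A call means a limma p under 0.05 after Benjamini-Hochberg adjustment across the 13494 genes tested. For siMENA11a against control, IFI6 and IFI27 were called higher and the other 2 members were not called, while 55.6% of all tested genes were called, 27.9% higher and 27.7% lower. Their libraries did not overlap, in the higher direction, for 3 of 4 members and for 32.1% of all tested genes, and 30.8% did not overlap in the lower direction. For siMENA against control, IFI6 and IFI27L2 were called lower, as were 25.8% of all tested genes, while 23.7% were called higher and 49.5% in all. Libraries did not overlap in the lower direction for 2 of 4 members and for 29.1% of tested genes, and 28.5% did not overlap in the higher direction. The IFI27L2 call ended in TPM as deposited (-0.20), after quantile normalisation (-0.16) and without control 1 (-0.23), control 3 (-0.26) or siMENA 1 (-0.19). For siMENA11a against siMENA, all 4 members were called higher and did not overlap, against 29.5% of tested genes called higher and 32.6% not overlapping in that direction. Of all tested genes 58.7% were called, 29.2% were called lower and 32.5% did not overlap in the lower direction. The log2 fold changes in that comparison were 2.65 ± 0.044 for IFI27, 0.35 ± 0.114 for IFI27L1 and 0.38 ± 0.088 for IFI27L2. In TPM as deposited the calls of IFI27L1 (0.14) and IFI27L2 (0.16) ended, and that of IFI27L1 also ended without siMENA11a 2 (0.35), siMENA11a 3 (0.29), siMENA 1 (0.25) or siMENA 2 (0.34). Since the choice of the family used these contrasts, nothing is read from the counts.

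The make-up of the family differed between the groups. Ratios within a library do not depend on the size factor. The ratio of IFI6 to IFI27 was 0.994, 1.10 and 1.10 in siMENA11a libraries 1 to 3, 0.170, 0.189 and 0.175 in siMENA and 0.376, 0.363 and 0.463 in control. The groups did not overlap. IFI6 made up 44.9% ± 1.76 of the summed TPM of the 4 genes in siMENA11a, 6.74% ± 0.318 in siMENA and 12.5% ± 1.06 in control (SD, n = 3 each). The share of IFI27 was 42.3% ± 0.809 in siMENA11a, 38.0% ± 2.83 in siMENA and 31.4% ± 2.84 in control. IFI27L2 made up 12.1% ± 1.01 in siMENA11a, 52.1% ± 2.84 in siMENA and 53.2% ± 2.71 in control. The ratio of IFI27L2 to IFI27L1 was 14.3 to 18.9 in siMENA11a, which overlapped both other groups. It was 15.04 to 17.6 in siMENA, below the 17.9 to 18.9 of control.

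**Figure D3:**
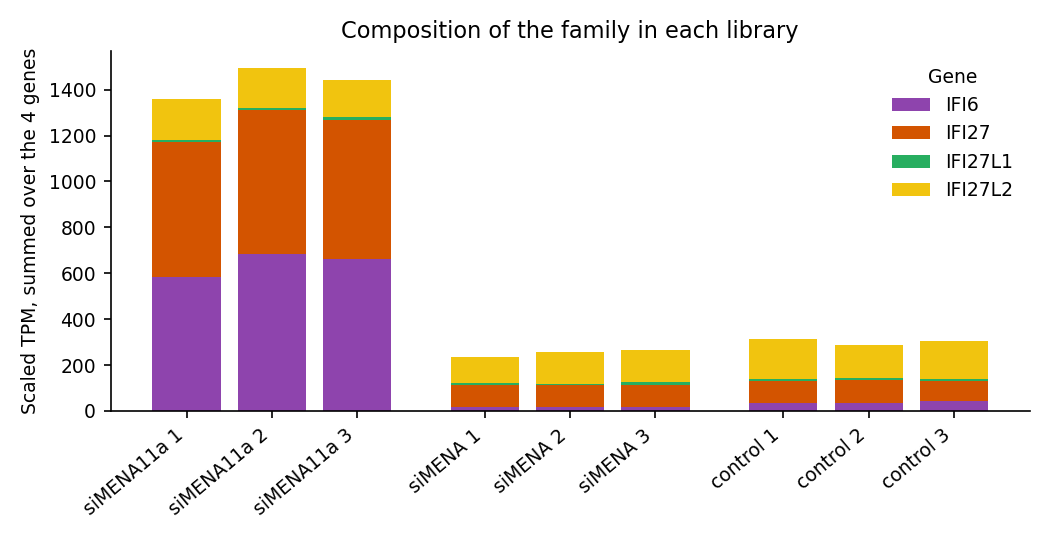
Scaled TPM of the 4 genes stacked for each of the 9 libraries, by group. The sum lies at 1359 to 1495 TPM in siMENA11a, 237 to 267 in siMENA and 289 to 313 in control, and IFI6 and IFI27 fill most of it only in siMENA11a.

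Other interferon-stimulated genes rose as a rule under siMENA11a, and under siMENA more of them fell than rose. Of 70 listed, 61 were tested, and in siMENA11a against control 56 rose, 3 fell and 2 were not called, with a median log2 fold change of 0.84 beside 0.01 for all genes. In siMENA against control 7 rose, 25 fell and 29 were not called, with a median of -0.12 beside 0.01 for all genes. Over all tested genes 27.9% were called higher and 27.7% lower in the first comparison, and 23.7% and 25.8% in the second. The largest rises on the log2 scale under siMENA11a were those of the chemokine CCL5 (4.21), the antiviral GTPase MX1 (3.43), the RNA-binding effector IFIT1 (2.59) and the pro-apoptotic XAF1 (2.43), and GBP1, a large GTPase, fell by 0.30 on the log2 scale. CCL5 was scarce in control, at 0.210 to 0.860 scaled TPM. IFI6 lay below CCL5 alone of the listed genes in that comparison, and IFI27 below CCL5 and MX1. Among all 13494 tested genes IFI6 was at place 9 from the highest and IFI27 at place 18. The place of IFI27 in the list rests on the pseudocount. Mean XAF1 was 3.61 scaled TPM in siMENA11a and 0.250 in control, and mean IFIT1 was 12.8 and 1.71. Both means rose by a larger factor than that of IFI27, which was 605 in siMENA11a and 94.8 in control. In siMENA against control the log2 fold change of IFI6 was at place 147 from the lowest of all 13494 tested genes. It was lower than that of all 61 listed. The nearest were APOL1, an apolipoprotein named after its value was seen, at -0.93 ± 0.097 and CCL5 at -0.75 ± 0.259. That order rests on the pseudocount of 0.5, which shrinks the changes of low genes. Mean APOL1 was 0.881 scaled TPM in siMENA and 2.12 in control, and mean CCL5 was 0.113 and 0.559. Both means fell by a larger share than that of IFI6, which was 17.1 in siMENA and 37.9 in control. In siMENA11a against siMENA 56 rose, 1 fell and 4 were not called. In TPM as deposited 48 rose and 3 fell for siMENA11a against control (median 0.71), and 10 rose and 15 fell for siMENA against control (median -0.04). The medians of all genes were then -0.10 and 0.09.

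**Figure D4:**
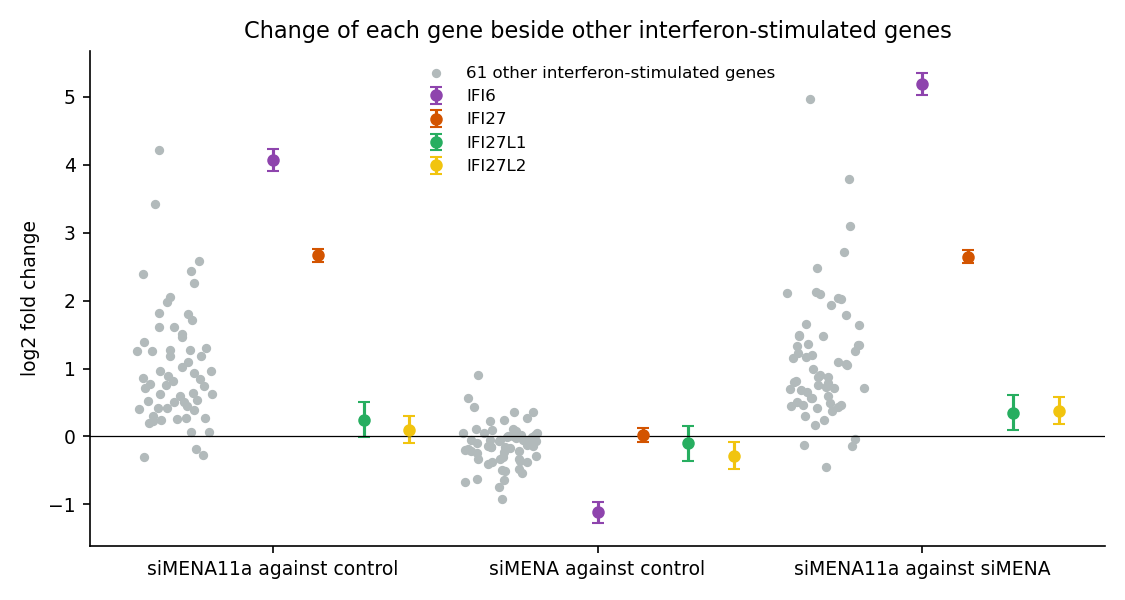
Log2 fold change of IFI6, IFI27, IFI27L1 and IFI27L2 (coloured points with 95% confidence intervals) and of 61 other tested interferon-stimulated genes (grey points) in the 3 comparisons. IFI6 is near the top of the grey points in siMENA11a against control, at 4.07. In siMENA against control it is below all of them at -1.12, an order that rests on the pseudocount of 0.5, and IFI27 is at 0.022.

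Genes that carry the interferon signal moved in both directions, and none of those tested reached the log2 fold change of IFI27 in siMENA11a against control. Of 23 signalling genes in siMENA11a against control, 9 rose, 6 fell and 8 were not called (median 0.11). Among them, IRF7 rose by 1.25 and IRF9 by 0.78 on the log2 scale, and both also stand in the list of interferon-stimulated genes. The receptor chain IFNAR2 fell by 0.64 and STAT3 by 0.42. In siMENA against control 5 rose, 10 fell and 8 were not called (median -0.11). Among all tested genes, 27.9% were called higher and 27.7% lower in siMENA11a against control, and 23.7% and 25.8% in siMENA against control. In TPM as deposited the median for siMENA11a against control was -0.01, beside -0.10 for all genes, with 7 genes that rose and 9 that fell. IFNAR1, the other chain of the type I receptor, named after its value was seen, was at 0.26 for siMENA11a against control, a call that ended in TPM as deposited (0.13), and at -0.61 for siMENA against control. Of 18 tested genes of RIG-I sensing, 11 rose, 5 fell and 2 were not called for siMENA11a against control, and 6 rose, 6 fell and 6 were not called for siMENA against control. The medians were 0.32 and -0.01, and 0.19 and 0.07 in TPM as deposited, where those of all genes were -0.10 and 0.09. DDX58, which encodes RIG-I, averaged 15.2 ± 0.659 scaled TPM in siMENA11a, 5.49 ± 0.338 TPM in siMENA and 8.05 ± 0.445 TPM in control. Its log2 fold change was 0.88 ± 0.060 for siMENA11a against control (limma adjusted p = 2.71e-06) and -0.51 ± 0.060 for siMENA against control (limma adjusted p = 0.000104). As for IFI6, its siMENA11a libraries were highest and its siMENA libraries lowest. IFIH1 and DHX58 of the same list did not share that order and were called higher in both comparisons with control. They were at 0.98 and 1.24 for siMENA11a against control, and at 0.30 and 0.19 for siMENA against control.

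Genes for described partners of the proteins moved in both directions. Tested genes as a whole did so too, with 27.9% called higher and 27.7% lower in siMENA11a against control. In siMENA against control those shares were 23.7% and 25.8%. The list holds 9 genes, the 2 RNA-binding proteins PCBP1 and PCBP2 that regulate the RIG-I adaptor included. In siMENA11a against control DDX58 alone rose, 6 fell and 2 were not called, and in siMENA against control 3 rose, 3 fell and 3 were not called. NR4A1, the nuclear receptor whose export has been linked to IFI27, averaged 10.2 ± 0.133 scaled TPM in siMENA11a, 35.03 ± 0.843 TPM in siMENA and 13.0 ± 1.78 TPM in control. It rose by 1.40 ± 0.077 on the log2 scale for siMENA against control (limma adjusted p = 1.04e-06), the comparison in which IFI27 was at 0.022. The other listed genes that rose in that comparison were NR4A2, by 1.64 ± 0.116, and NR4A3, by 0.97 ± 0.117. SKP2, the F-box protein through which IFI27 is described to act, was at -0.51 for siMENA11a against control and 0.01 for siMENA against control. HSPA5, the partner described for IFI6 in the endoplasmic reticulum, was at -0.17 and -0.28 in the same comparisons, and its call for siMENA11a against control ended after quantile normalisation (-0.12).

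Genes of the mitochondrial death pathway moved in both directions, as did tested genes as a whole. Of all tested genes, 27.9% were called higher and 27.7% lower in siMENA11a against control. The shares in siMENA against control were 23.7% and 25.8%. Of 33 tested, 8 rose, 9 fell and 16 were not called in siMENA11a against control (median 0.02), and 7 rose, 13 fell and 13 were not called in siMENA against control (median -0.07). In TPM as deposited 4 rose and 12 fell in siMENA11a against control (median -0.10), and 8 rose and 8 fell in siMENA against control (median 0.01). The medians of all genes were then -0.10 and 0.09. In siMENA11a against control the pore-forming BAK1 rose by 0.83 and the initiator caspase CASP8 by 0.68 on the log2 scale. In the same comparison the apoptosome scaffold APAF1 fell by 0.51.

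No tested neighbour reached the log2 fold change of IFI6 or IFI27 in siMENA11a against control. In that comparison 27.9% of all tested genes were called higher and 27.7% lower, and in siMENA against control 23.7% and 25.8%. Of 11 tested neighbours of IFI6, 2 rose, 1 fell and 8 were not called in siMENA11a against control, and 7 rose, 1 fell and 3 were not called in siMENA against control. Unscaled TPM, in which the median of all genes was -0.10, gave 1 that rose and 4 that fell in siMENA11a against control. SMPDL3B, which encodes a membrane phosphodiesterase, rose in both comparisons, by 1.71 ± 0.138 and 1.76 ± 0.138. Of 7 tested neighbours of the IFI27 cluster, 2 rose, 2 fell and 3 were not called in siMENA11a against control, and 4 rose, 1 fell and 2 were not called in siMENA against control. Unscaled TPM gave 1 that rose and 4 that fell in siMENA11a against control. DDX24, the gene next to IFI27L1, averaged 75.8 ± 0.340 scaled TPM in siMENA11a, 88.7 ± 3.65 TPM in siMENA and 78.2 ± 0.562 TPM in control. Within the cluster, IFI27 lies between IFI27L1 and IFI27L2, whose log2 fold changes for siMENA11a against control were 0.25 and 0.10 beside its 2.67.

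**Figure D5:**
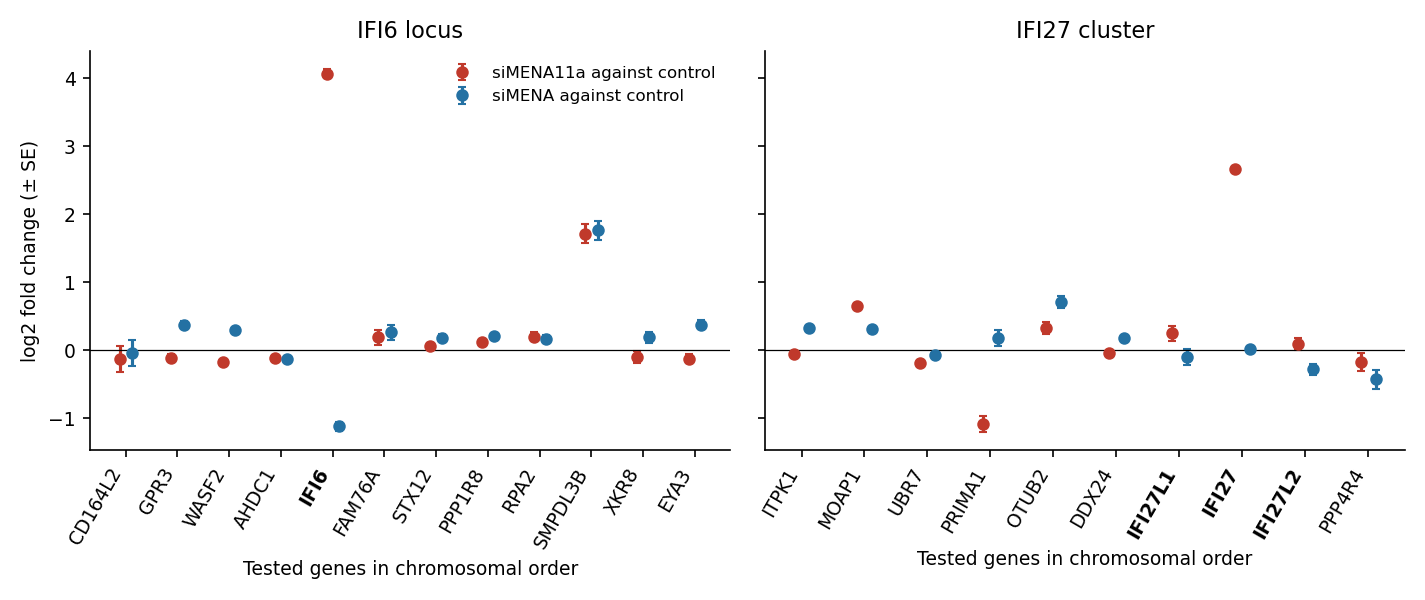
Log2 fold change (± SE) of tested genes around IFI6 (left) and around the IFI27 cluster (right) in chromosomal order, for siMENA11a against control (red) and siMENA against control (blue), with family members in bold. IFI6 (4.07 and -1.12) and IFI27 (2.67 and 0.022) stand out from their neighbours in siMENA11a against control, and SMPDL3B (1.71 and 1.76) is the neighbour with the largest changes.

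The genes whose pattern was most like that of a member were found by the root mean square difference of log2 values, each relative to its control mean, over 9 libraries. For IFI6 they were CCL5 (0.36), MX1 (0.58), IFIT1 (0.93), IFI27 (1.05) and ISG15 (1.08). For IFI27 they were XAF1 (0.22), ISG15 (0.28), IFI44L (0.28), IFIT1 (0.33) and CHAC1 (0.36), and IFI6 came only at place 186. CHAC1, which degrades glutathione, is induced in the integrated stress response and is not in the interferon list. For IFI27L1 the nearest genes included CCDC130 (0.07) and ZNF117 (0.09). For IFI27L2 they were the pseudogene MTHFD2P1 (0.03), which can share reads with its parent gene and is uncertain, PCDH10 (0.05) and C12orf65 (0.06). Genes with small changes lie close to many others on this measure.

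Promoter windows were available for 10280 of the other 13490 tested genes (76.2%), too few to speak for the whole table, so the counts describe these genes alone. Of the 10280, 28.9% were called higher and 29.6% lower in siMENA11a against control, and 24.6% higher and 27.2% lower in siMENA against control. The 362 genes with 1 core lay near these shares, with 30.9% called higher and 26.2% lower in siMENA11a against control, and 24.03% higher and 29.01% lower in siMENA against control. Among the 35 other tested genes known to have at least 2 cores, 21 were called higher, 3 lower and 11 not called in siMENA11a against control, with a median log2 fold change of 0.38. In siMENA against control 6 of the same 35 were called higher, 16 lower and 13 not called, with a median of -0.17. Of these 35 genes, 12 are in the interferon list, so the counts are not independent of it. Within that list, 16 of 17 genes without a core were called higher in siMENA11a against control (median 0.78). So were 28 of 30 with at least 1 core (median 0.97). In siMENA against control 4 of the 17 were called higher and 3 lower, and 2 of the 30 higher and 16 lower. The part of the cores in these changes was not tested.

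Summed ENAH was 46.4 to 48.4 scaled TPM in siMENA11a, 6.85 to 7.45 in siMENA and 43.0 to 44.5 in control, a sum over isoforms that does not measure exon 11a. The number of genes at 1 TPM or more was 12258 to 12520 per library, and TPM keeps no depth, so the depth is unknown. RN7SL RNA took 44.3% to 45.2% of the TPM in siMENA11a, 39.6% to 40.6% in siMENA and 39.7% to 41.1% in control, and its part in the results was not tested. Without the size factors, in TPM as deposited, the middle gene of all those tested was at -0.10 on the log2 scale for siMENA11a against control, 0.09 for siMENA against control and -0.20 for siMENA11a against siMENA. Of the calls, 50.2%, 47.9% and 50.3% were higher in these comparisons, and 28.6%, 63.3% and 24.4% in TPM as deposited. The keratins KRT8 and KRT18 were at 89.1 and 211 TPM in siMENA11a, 93.4 and 221 TPM in siMENA and 96.9 and 251 TPM in control, and the other 2 of 12 lung and epithelial markers that were tested moved differently. KRT7 was at 15.7 TPM in siMENA11a, 4.30 TPM in siMENA and 9.88 TPM in control, with called log2 fold changes of 0.65 for siMENA11a and -1.10 for siMENA against control. EPCAM was at 2.88 TPM in siMENA11a, 3.08 TPM in siMENA and 1.45 TPM in control, with called log2 fold changes of 0.80 and 0.88 in the same comparisons. The remaining 8 markers, NKX2-1 and CDH1 among them, stayed under 1 TPM in all 9 libraries. Of 18 leukocyte markers 15 stayed under 1 TPM in all 9 libraries, and CD3D, CD3E, CD2, MS4A1, NKG7 and TYROBP were among those listed at 0 in all 9. The list's sum was 126 to 132 TPM in siMENA11a, 42.3 to 50.9 in siMENA and 97.7 to 106 in control, nearly all of it CD68, a lysosomal protein, and its part in the results was not tested. All 7 plasmacytoid dendritic cell markers stayed under 1 TPM in all 9 libraries. Of fibroblast and endothelial markers, 7 of 10 and 6 of 8 did so, with sums of 8.84 to 9.39 and 9.88 to 10.9 TPM in siMENA11a, 16.9 to 19.5 and 5.98 to 6.42 TPM in siMENA, and 10.0 to 10.6 and 11.3 to 13.5 TPM in control.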

How the data were processed

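The authors deposited 1 table of TPM, rounded to 2 decimals, for 29972 genes in 9 libraries (3 groups of 3). Stranded paired-end libraries were made from DNase-treated RNA after removal of ribosomal RNA, per the labels' protocols. The submitters' processing notes list kallisto and GRCh37 without a role, the table's name points to merged RSEM gene values, and strand use is not given in the sources used here. Each of the 9 value columns belongs to 1 sample, and there were 0 further ones. TPM was divided by median-of-ratios size factors over 12341 genes with a mean of at least 1 TPM and no value of 0. Genes averaging 0.5 scaled TPM or more (13494) entered a limma fit (version 3.58.1, R 4.3.3; 3 group means, eBayes with a mean trend) after adding a pseudocount of 0.5 and taking log2, so a log2 fold change understates the change of low genes. The fit was tested on simulated data. Levels carry the SD of 3 libraries and log2 fold changes their SE.

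The members, lists, naming rule and alternatives were chosen with earlier results of these data known. Named genes are the members, the 5 or 3 genes most like each, up to 4 called genes per list and direction with the largest changes under siMENA11a, partners and neighbours of the members, and ENAH. No list got a set test. Alternatives were pseudocounts of 0.1 and 1, no filter or a mean of 5, TPM as deposited, quantile normalisation, a replicate block and each library left out. Promoter windows and neighbour order are RefSeq's on GRCh38.p14. A few genes that the naming rule covers are not reported here.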

Additional observations from a re-analysis of the deposited data

How the results depend on the processing

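For IFI6 in all 3 comparisons, and for IFI27 in siMENA11a against control and against siMENA, direction and call held under all 16 alternatives run. IFI6 ranged from 3.94 to 4.14 for siMENA11a against control, from -1.16 to -1.04 for siMENA against control and from 4.98 to 5.26 for siMENA11a against siMENA, and IFI27 from 2.53 to 2.77 and from 2.43 to 2.67 in the first and the last of these. IFI27 for siMENA against control became called after quantile normalisation (0.17), and with a library left out it ranged from -0.018 (without control 3) to 0.060. In TPM as deposited, IFI27L2 turned to -0.037 for siMENA11a against control, and the calls of IFI27L2 ended for siMENA against control (-0.20) and siMENA11a against siMENA (0.16), as did that of IFI27L1 for siMENA11a against siMENA (0.14). Quantile normalisation also ended the call of IFI27L2 for siMENA against control (-0.16). With a library left out, IFI27L2 for siMENA against control ranged from -0.36 to -0.19, IFI27L1 for siMENA11a against siMENA from 0.25 to 0.46 and IFI27L1 for siMENA11a against control from 0.17 to 0.31, where it became called without siMENA 3. Without a call in any of them, IFI27L1 for siMENA against control ranged from -0.22 to -0.00019 and IFI27L2 for siMENA11a against control from 0.021 to 0.15. The cause was not tested. No pairing of libraries by replicate number was detected, which does not show that there was none. Deviations from the group means correlated at -0.07 to 0.06 over 9 pairs with the same number. Over 18 other pairs they correlated at -0.06 to 0.10. With the replicate block, IFI27L1 became called for siMENA11a against control (0.25), and 7308, 6384 and 7732 genes were called in the 3 comparisons, against 7502, 6674 and 7920. Over all alternatives these counts lay within 5855 to 7585, 5312 to 6672 and 6179 to 8344. Depth is unknown, so the counting error of low values such as those of IFI27L1 cannot be given.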
